A study of Mus musculus with 2 samples.

Results

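The genes described here build and supply the photoreceptor cilium. They are 39 genes, chosen by symbol from a list of Bardet-Biedl syndrome (BBS), intraflagellar transport (IFT), and connecting-cilium genes, of 32285 genes in the count matrices, and all 39 were detected in both libraries. They fall into 8 roles, which were 7 subunits of the BBSome, 2 chaperonin-like proteins, 2 small GTPases, 11 IFT-B and 3 IFT-A proteins, 7 connecting-cilium proteins, 3 kinesin-2 motors, and 4 cargo carriers.

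A photoreceptor's outer segment is a highly modified primary cilium, joined to the cell body by a narrow connecting cilium through which every outer segment protein passes. IFT-B particles with kinesin-2 carry cargo toward the tip and IFT-A particles serve the return, while the BBSome, a coat built with the help of BBS10 and BBS12, removes membrane proteins that do not belong there. Lipid-modified proteins such as transducin and phosphodiesterase 6 are handed over by the carriers UNC119 and PDE6D, which the GTPase ARL3 unloads inside the cilium. Loss of many of these genes causes retinal dystrophy, either alone or within a ciliopathy.

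Droplet-based 3′ single-cell RNA-Seq was performed on whole retina of male C57BL/6J mice aged 7 months. The WT library came from mice of WT genotype, and the mutant library came from mice of the ND6 genotype, which carry a point mutation in the mtDNA gene for the complex I subunit ND6 in the whole body and are kept through the female line. The mutation cannot be read from UMI counts, so the labels were not checked against it. Each genotype had 1 library here (replicate 1), so differences between them have no replicate check, and every interval below covers counting error only.

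The analysis kept 12529 WT and 18395 mutant cells with 54524401 and 62949610 UMIs, a median of 1878 and 1416 UMIs per cell. Levels are counts per 1000000 UMIs (CPM) of a cell class and library, and since the 3′ method counts a transcript by its end, they were not divided by length. The limit of 20% mtDNA-encoded UMIs removed 10647 WT and 3861 mutant barcodes, and 59 barcodes were shared by both libraries. Classes carry the suffix "-like", because clusters were named from markers. There were 9648 WT and 12997 mutant rod-like cells (median 1768.5 and 1340 UMIs), 649 and 1153 cone-like, 244 and 636 bipolar-like, 82 and 313 amacrine-like, 35 and 90 Müller-like, 329 and 959 RPE-like, and 260 and 144 microglia-like cells. Rod RNA was found in every class. The summed CPM of 8 rod markers was 70374 WT and 72552 mutant in rod-like cells and still 16084 and 23097 in amacrine-like cells, the lowest of the classes. An unnamed cluster (1009 WT and 1499 mutant cells, led by Nefl and Bc1) had 10959 and 9820 CPM of the summed members, and an erythrocyte-like cluster (273 and 604 cells) had 10120 and 9562. Neither was compared further.

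The sequence upstream of 4 of the members named in the results below is shown. Unc119 was the most abundant member, Rpgrip1 had the largest Malat1-high to Malat1-low ratio in mutant rods after Rpgr, Ift57 was higher in rod-like than in inner retinal cells, and Bbs12 was the member called between the libraries in rod-like cells. Each run is 250 bases before an annotated start, on the plus strand of GRCm38.p6 (RefSeq), read 5′ to 3′. They are chr11:78345334-78345583 (Unc119, the second of its 3 starts), chr14:52110653-52110902 (Rpgrip1), chr16:49699044-49699293 (Ift57), and chr3:37312304-37312553 (Bbs12). Capitals mark a match to TAATCC, the core bound by the photoreceptor factor CRX, or to the X-box bound by the ciliary RFX factors, searched as GTNNCC and GNNAC separated by NNN.
Unc119: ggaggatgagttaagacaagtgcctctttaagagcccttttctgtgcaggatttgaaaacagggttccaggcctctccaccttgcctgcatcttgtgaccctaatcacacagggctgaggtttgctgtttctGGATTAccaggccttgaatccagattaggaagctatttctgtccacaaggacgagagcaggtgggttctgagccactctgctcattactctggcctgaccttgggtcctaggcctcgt
Rpgrip1: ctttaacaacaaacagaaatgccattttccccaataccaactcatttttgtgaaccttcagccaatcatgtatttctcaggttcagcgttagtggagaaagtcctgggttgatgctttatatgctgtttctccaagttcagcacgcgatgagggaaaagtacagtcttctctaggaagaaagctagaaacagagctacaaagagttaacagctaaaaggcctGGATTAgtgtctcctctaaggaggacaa
Ift57: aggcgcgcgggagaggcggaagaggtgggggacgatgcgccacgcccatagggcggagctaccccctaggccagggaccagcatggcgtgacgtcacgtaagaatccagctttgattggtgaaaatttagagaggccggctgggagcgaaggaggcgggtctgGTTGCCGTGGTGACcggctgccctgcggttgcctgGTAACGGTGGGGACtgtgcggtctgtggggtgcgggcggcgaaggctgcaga
Bbs12: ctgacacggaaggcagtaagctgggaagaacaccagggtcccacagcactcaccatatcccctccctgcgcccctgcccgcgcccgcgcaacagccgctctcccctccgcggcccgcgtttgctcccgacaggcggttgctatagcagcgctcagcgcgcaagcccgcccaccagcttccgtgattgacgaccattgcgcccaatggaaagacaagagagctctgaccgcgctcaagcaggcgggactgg
The CRX core on either strand stood in 3 of the 44 member windows (Bbs1, Rpgrip1, and Unc119), against 7.06% of 32851 windows of all genes. The X-box stood in 7 of 44 (Ahi1, Bbs1, Bbs4, Bbs7, Ift22, Ift57, and Nphp4), against 4.62% of all windows. Windows ran from 250 bases before to 50 bases after a start, 36 of the 39 members had a window, and Bbs1 held both motifs. The Bbs12 stretch has neither set of letters. The windows of Rpgr and Tulp1, which also carry results below and are not shown, held neither motif, so the stretches shown do not stand for all members. The Unc119 stretch lies inside the gene, and the windows at its other annotated starts held neither motif.

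In rod-like cells the members made up 12105 CPM in the WT and 11094 CPM in the mutant library, and a few of them carried most of this sum. Unc119 alone accounted for 40.2% of the member UMIs in WT and 34.8% in the mutant library, and Unc119, Tulp1, Rpgrip1, and Arl3 together for 72.8% and 73.0%. Without Unc119 the sum was 7234 and 7235 CPM, nearly equal in the libraries. The median member stood at 65.8 and 61.5 CPM, and 15 members were under 50 CPM in each library.

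Among the cargo carriers, Unc119 (chr11:78343482-78349164, plus strand), which solubilizes acylated transducin, was measured at 4871 CPM in WT and 3860 CPM in the mutant rod-like cells. Tulp1 (chr17:28351515-28365222, minus strand), a tubby-like protein needed for rhodopsin transport, followed at 1984 and 2147 CPM. Pde6d, which carries prenylated proteins, had 276 and 208 CPM. Rp2, the GTPase-activating protein of ARL3, was 1 of the scarcest members at 8.60 and 10.0 CPM. The carriers thus spanned the widest range of any role.

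Of the connecting-cilium genes, Rpgrip1, which anchors RPGR in the connecting cilium, was far above the others at 1237 CPM in WT and 1250 in the mutant library. Cep290, a transition zone protein mutated in Leber congenital amaurosis, had 446 and 346 CPM. Ahi1 (198 and 229 CPM) and Lca5, which encodes lebercilin (142 and 94.7), came next. Rpgr, the X-linked retinitis pigmentosa gene, had 70.7 and 57.3 CPM, Spata7 had 54.6 and 55.9, and Nphp4 had 9.92 and 9.28. The order of these 7 genes was the same in both libraries, although Rpgr and Spata7 were within their counting intervals of each other in the mutant library.

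The GTPase Arl3 stood at 726 CPM in WT and 839 in the mutant rod-like cells, above Arl6, the GTPase that recruits the BBSome to membranes, at 410 and 335. The BBSome subunits lay within a narrow band. Bbs7 (205 and 196 CPM), Ttc8 (172 and 172), Bbs4 (166 and 149), and Bbs5 (125 and 109) were the higher ones, and Bbs9 (87.0 and 82.5), Bbs2 (63.5 and 55.3), and Bbs1 (48.4 and 52.0) the lower. Both chaperonin-like genes were low, with Bbs12 at 17.1 and 26.2 CPM and Bbs10 at 7.90 and 9.49.

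The IFT genes were of modest level throughout. In IFT-B, Ift20, the subunit that also resides at the Golgi, was highest at 96.6 CPM in WT and 120 in the mutant library, next to the tubulin-binding pair Ift81 (91.1 and 87.3) and Ift74 (71.3 and 67.4). Ift57 (50.1 and 61.5 CPM), Ift80 (47.5 and 42.4), Ift46 (34.8 and 25.8), Ift27 (32.8 and 40.6), and Ift22 (32.7 and 44.2) were intermediate. Ift52 (27.3 and 24.4 CPM), Ift88 (25.3 and 23.9), and Ift172 (15.2 and 17.5) were lowest of the 11. In IFT-A, Ift43 had 65.8 and 90.5 CPM, Ift122 36.1 and 37.1, and Ift140 11.2 and 10.3. The kinesin-2 subunits Kif3b (87.6 and 69.1 CPM) and Kif3a (52.4 and 38.8) were clearly present, whereas Kif17, the homodimeric kinesin-2, had 40 WT and 41 mutant UMIs in all, or 1.17 and 1.23 CPM.

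**Figure D1:**
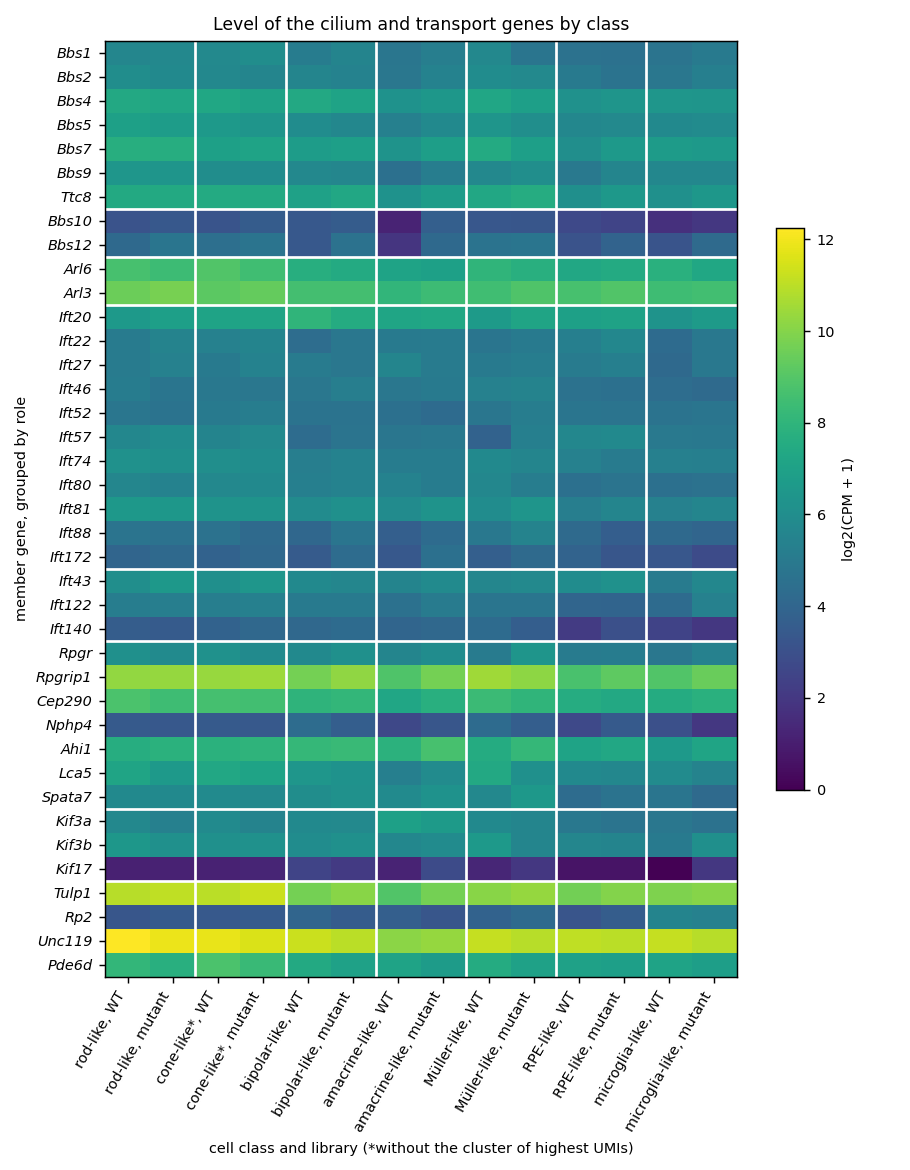
Level of each member (rows, grouped by role) in 7 classes of each library (columns), as log2(CPM + 1) by colour. Unc119, Tulp1, Rpgrip1, and Arl3 form the brightest rows in rod-like cells, and Kif17 is dark in every class.

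To ask whether the members were higher in photoreceptors, rod-like cells were compared with the inner retina, the sum of bipolar-like and amacrine-like cells (326 WT and 949 mutant cells), within each library. The members were summed to 6205 CPM in WT and 6698 in the mutant inner retina, against 12105 and 11094 in rod-like cells. A member was called when it differed at least 2-fold in the same direction in both libraries, with intervals that left out a ratio of 1. It also needed at least 50 UMIs over both classes and both libraries together. By this rule 6 of 39 were higher in rod-like cells, where 1.5% of 13038 tested genes were. They were the carriers Tulp1 and Unc119, both GTPases, the BBSome subunit Bbs5, and the IFT-B gene Ift57.

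Tulp1 had 1984 CPM in WT rod-like and 727 CPM in WT inner retinal cells, and 2147 against 1007 in the mutant library (log2 ratio 1.45 and 1.09). Unc119 had 2084 and 1802 CPM in the inner retina (log2 1.22 and 1.10), and Arl3 had 350 and 367 (1.05 and 1.19). Arl6 had 184 and 160 CPM there (1.16 and 1.07). All of these were higher in rod-like cells in each library. Bbs5 had 54.2 and 51.6 CPM in the inner retina (log2 1.20 and 1.07), and Ift57, whose upstream stretch with both X-box matches is shown above, had 21.4 and 26.3 CPM (1.21 and 1.22).

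Kif17 was the single member called lower, at 3.70 CPM in WT and 4.13 in the mutant inner retina (9 and 24 UMIs), with log2 ratios of −1.72 and −1.76. Its exons overlap those of Sh2d5 on the same strand, so its level is uncertain. The share of all genes called lower was 22.5%. In all, 25 members were above 0 in both libraries and 8 below 0 in both, the latter being Ift20 (−1.21 and −0.54), Kif3a (−0.54 and −0.83), Ahi1 (−0.43 and −0.60), Ift140 (−0.54 and −0.81), Spata7 (−0.16 and −0.39), Nphp4, Rp2, and Kif17. Ift20 had 223 and 175 CPM in the inner retina, more than in the rods of either library. The members' median was 0.57 in WT and 0.26 in the mutant library, beside −0.27 and −0.40 over all genes. The 8 rod markers had 1.17 to 1.69 and 1.08 to 1.66 in the same comparison, and all 8 were called. Rod-like clusters were named by these same markers, so their calls were largely set by the naming and only their size serves as a reference.

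The set of called members depended on which rods were used, which are divided below by their share of the nuclear RNA Malat1. With Malat1-high rods alone, Tulp1, Arl6, Bbs5, Bbs9, and Ift57 were higher (1.99% of genes) and Kif17 lower (20.5%), and Unc119 and Arl3 were not called. With Malat1-low rods alone, Unc119 (log2 1.66 and 1.38), Arl3 (1.55 and 1.59), Tulp1, Arl6, Ift57, and Pde6d were higher (2.04% of genes). In the same rods Rpgr (−3.00 and −2.97), Spata7 (−2.54 and −1.80), Ift140 (−2.45 and −2.29), Rpgrip1 (−1.89 and −2.12), Kif3a (−1.26 and −1.20), and Ahi1 (−1.17 and −1.49) were lower than in the inner retina, where 45.1% of genes were. Tulp1, Arl6, and Ift57 were thus called with each set of rods. The inner retinal cells were not divided by Malat1, which stood at 35282 CPM in WT and 35422 in the mutant library there. In Malat1-low rods it stood at 981.6 and 1720.5 CPM, and the median over all genes was −1.12 and −0.99. The lower values in these rods therefore also compare cells unlike in nuclear RNA.

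**Figure D2:**
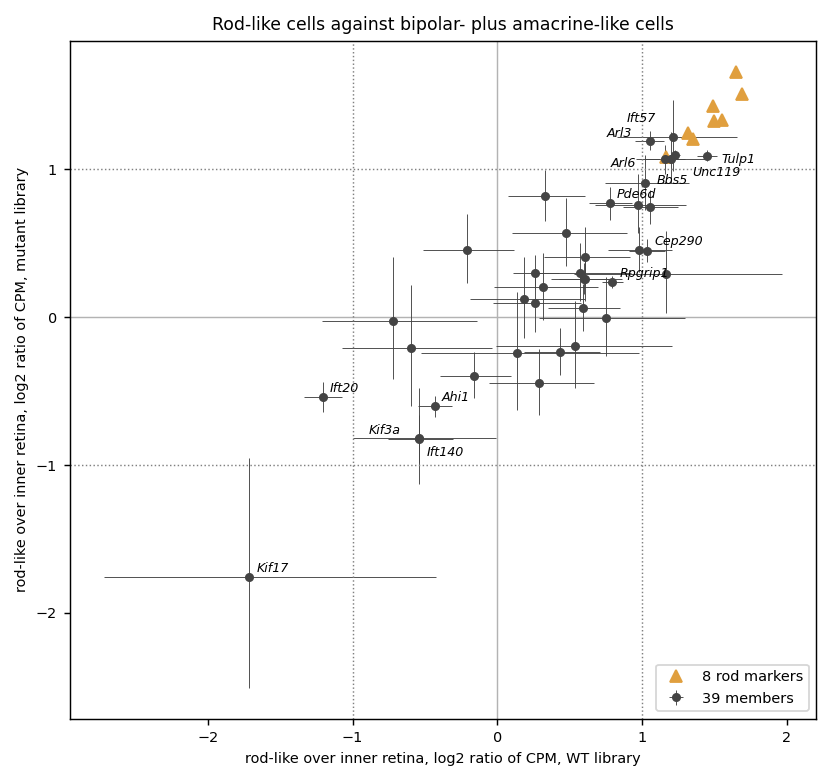
Log2 ratio of CPM in rod-like over inner retinal cells, WT library on the x axis and mutant library on the y axis, with 95% counting intervals, for the 39 members (circles) and 8 rod markers (triangles). Past the dotted lines of a 2-fold ratio, Tulp1, Unc119, Ift57, Bbs5, Arl6, and Arl3 lie at the upper right and Kif17 at the lower left.

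Of 63 other cilium genes tested in the same way, 0 were higher in rod-like cells and 4 were lower, among them Arl2, Tulp3, and Kif3c. Their median was 0.27 in WT and 0.13 in the mutant library. With median-of-ratios size factors, 7 of them were higher.

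Cone-like cells, which also held rod RNA, had about the same member content as rods. A cluster with a median of 30943 UMIs (137 WT and 330 mutant cells) was left out of these values, because it stood apart from the other cone-like cells in depth. The remaining 512 WT and 823 mutant cells held 10981 and 10755 CPM of members, and 0 of 39 were called against rods in either direction, beside 6.78% of genes higher and 0.196% lower. With that cluster kept, 0 were called as well (5.46% and 0.151%). Of the 8 rod markers, 0 were called lower with or without that cluster. The rule thus could not show a member to be lower in cones than in rods. Rod markers in these cone-like cells were at 45.8% to 78.3% of the rod level in WT and 54.8% to 79.9% in the mutant library. Against the inner retina, Arl6 (log2 1.39 and 1.18), Ift57 (1.09 and 1.01), Tulp1 (1.48 and 1.31), and Pde6d (1.45 and 1.36) were higher in these cone-like cells (2.61% of genes) and 0 lower (17.0%). With the deep cluster kept, Tulp1 and Lca5 were higher (2.42%) and 0 lower (17.2%). Of the 8 rod markers, 1 was also called higher over the inner retina without that cluster and 5 with it. The part of rod RNA in these calls was not tested.

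Without that cluster, Pde6d had 442 CPM in WT and 314 in the mutant library (log2 0.68 and 0.60 over rods), which was under 2-fold and not called. In all cone-like cells its ratio was 0.17 and 0.11. Ift20 was also above the rod level (138 and 142 CPM, log2 0.52 and 0.24, and 0.29 and 0.030 in all cone-like cells). Bbs7 was the furthest below it, at 124 CPM in WT and 135 in the mutant library (−0.72 and −0.54), but in all cone-like cells it was at −0.13 and −0.045, and Unc119 (−0.49 and −0.40) and Arl3 (−0.42 and −0.42) were the furthest below. Bbs9 (−0.44 and −0.41), Unc119 (−0.42 and −0.34), Bbs5 (−0.39 and −0.40), and Arl3 (−0.32 and −0.34) were lower too, all by less than 2-fold. The lower counting limit of the cone to rod ratio passed every rod marker in both libraries for 21 of the 39 members. The same held for 48.2% of genes. By ratio, 4 members did not exceed the highest rod marker in either library (Bbs5, Bbs7, Bbs9, and Unc119), and 14 met neither condition.

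In each further class the level of a rod marker shows how much of a rod gene's signal was present there. A member counted as above every rod marker when its lower counting limit passed their highest ratio in both libraries. In bipolar-like cells the rod markers stood at 34.8% to 52.2% of their rod level in WT and 34.2% to 51.1% in the mutant library, and 23 of 39 members were above every rod marker in both (75.4% of genes). Kif17 was called higher than in rods (log2 2.08 and 1.46, from 8 and 13 UMIs, where 17.7% of genes were called), and Bbs5 and Ift57 were called lower (1.0%). Tulp1, Bbs5, and Ift57 did not exceed the highest rod marker in either library.

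Amacrine-like cells had the lowest rod marker level, 18.9% to 27.7% of the rods in WT and 26.1% to 38.97% in the mutant library. Kif3a had 123 CPM in WT and 99.9 in the mutant amacrine-like cells and was called higher than in rods (log2 1.24 and 1.37; 20% of genes). Bbs9, Arl6, Arl3, Tulp1, and Unc119 were called lower (2.77% of genes), Unc119 by the most in both libraries (1115 and 1276 CPM, log2 −2.13 and −1.60). Unc119 and Tulp1 did not exceed the highest rod marker in either library, while 24 members, Kif3a and Pde6d among them, were above all of these markers (76.2% of genes).

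In Müller-like cells 0 members were called in either direction (13.3% of genes higher and 0.157% lower). Rod markers stood there at 40.8% to 77.4% of the rod level in WT and 45.8% to 55.8% in the mutant library. Of the 8 rod markers, 1 was itself called lower. By their lower limits, Ttc8, Ift20, and Rpgrip1 were the 3 members above every rod marker (34.2% of genes). Arl3 and Unc119 did not exceed the highest rod marker in either library, and 34 members met neither condition. The Müller-like class held 35 WT cells with a median of 9812 UMIs and 90 mutant cells with a median of 1662, so the libraries differed in depth there. In microglia-like cells Rp2 had 44.8 CPM in WT and 41.2 in the mutant library (39 and 14 UMIs), against 8.60 and 10.0 in rods, and was called higher (log2 2.40 and 2.09; 9.67% of genes). Arl3, Lca5, Spata7, and Tulp1 were called lower (2.18%). Rod markers stood at 42.3% to 50.1% of the rod level in WT and 44.5% to 52.1% in the mutant microglia-like cells. By their lower limits, Rp2 and Ift20 were the 2 members above every rod marker in microglia-like cells (28.2% of genes). There 7 members did not exceed the highest rod marker in either library, and 30 met neither condition.

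RPE-like cells held 5436 CPM of members in WT and 5889 in the mutant library. In them 0 members were called higher than in rods (11.7%) and 8 lower (4.92%), which were Bbs1, Bbs5, Bbs7, Ift122, Rpgrip1, Cep290, Spata7, and Tulp1. Rod markers were at 32.9% to 43.6% of the rod level in WT and at 46.5% to 49.9% in the mutant library. Different clusters made up this class in the libraries, since 1 cluster held 233 WT and 955 mutant cells and another 96 WT and 4 mutant cells. With median-of-ratios size factors in place of total UMIs, 0 members were lower in RPE-like and 0 in microglia-like cells, so the lower calls of these classes rest on the scaling. In amacrine-like cells that count went from 5 to 14 and in bipolar-like cells from 2 to 8. With the highest 10% of doublet scores removed, 26 members were lower in RPE-like, 13 in amacrine-like, 11 in microglia-like, and 4 in bipolar-like cells.

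Barcodes of 10 to 100 UMIs, taken as a measure of RNA outside intact cells, had 9171 CPM of members in WT and 8377 in the mutant library. Unc119 was at 3851 and 2869 CPM, Tulp1 at 1680 and 1413, and Rpgrip1 at 747 and 909. Of the 39 members, 0 were called against rod-like cells in either direction (3.75% of genes higher and 0.101% lower).

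The rod-like cells themselves differed in nuclear RNA, and the members followed that difference unevenly. Malat1, a nuclear long noncoding RNA, was used to divide them at the pooled median of its share, 0.367% of a cell's UMIs, and 4519 rod-like cells (19.96%) lay within 1.5-fold of this limit, so the division is of a range and not of types. Malat1-high cells were 43.0% of WT and 55.2% of mutant rod-like cells. In the Malat1-high against the Malat1-low cells, 10 of 39 members were called higher in both libraries, beside 25.9% of genes, and 0 lower, beside 0.0338%. The members were thus called about as often as genes in general.

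Rpgr had 93.6 CPM in Malat1-high and 6.50 CPM in Malat1-low rods of the WT library, and 76.8 against 8.59 in the mutant library (log2 3.84 and 3.15). Rpgrip1, whose product binds that of Rpgr, had 1608 against 192 CPM in WT and 1654 against 244 in the mutant library (3.07 and 2.76). These were the largest ratios of the 39 members in each library. The exons of Rpgr overlap those of Srpx on the same strand, so its level is uncertain in the way given below for Bbs12. Spata7, whose product also lies in the connecting cilium, had 70.3 against 10.4 CPM in WT and 69.9 against 21.1 in the mutant library (2.75 and 1.73). Lca5 was also called (log2 1.59 and 1.39), so that 4 of the 7 connecting-cilium genes were, beside 25.9% of all genes.

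The other called members were Ift140 (log2 2.25 in WT and 1.80 in the mutant library) and Ift122 (1.23 and 1.39) of IFT-A, the chaperonin-like Bbs12 (1.97 and 1.77) and Bbs10 (1.38 and 1.38), the motor subunit Kif3b (1.45 and 1.04), and Ift88 (1.33 and 1.10). None of the BBSome subunits, GTPases, or carriers was called. On the other side, 8 members were below 0 in both libraries. They were Ift43 (−0.74 and −0.45), Arl3 (−0.73 and −0.59), Unc119 (−0.63 and −0.41), Pde6d (−0.37 and −0.35), Ift22 (−0.31 and −0.35), Ift27 (−0.22 and −0.49), Ift57 (−0.22 and −0.28), and Arl6 (−0.01 and −0.19). Unc119 had 4258 CPM in Malat1-high and 6595 in Malat1-low WT rods, and 3527 against 4688 in the mutant library.

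The members' median in this comparison was 0.72 in WT and 0.50 in the mutant library, close to the 0.84 and 0.53 of all genes, and of 62 other cilium genes 19 were called higher (median 1.07 and 0.68). Rod markers ranged from −1.06 to 0.45 and from −0.74 to 0.39. With median-of-ratios size factors 5 members were higher and 2 lower. Beside these values, Malat1-high and Malat1-low rods had median UMIs of 3511.5 and 1451 in WT and 1382.5 and 1317 in the mutant library, ribosomal protein UMIs of 5.96% and 12.8% in WT and 7.45% and 12.2% in the mutant library, and mtDNA-encoded UMIs of 7.16% and 13.3% in WT and 6.25% and 10.0% in the mutant library. Their part in the differences was not tested.

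The called members had longer coding transcripts by their median, though not more exons than the rest. The longest annotated coding transcript had a median of 3963.5 bases (range 2052 to 6942) in the 10 called members, 1265 (783 to 3071) in the 8 members below 0, and 3161 in the rest, and the median number of exons was 15, 7, and 17. The called members included Bbs10, with a span of 3049 bases and 2 exons, and Cep290, with the longest transcript (8211 bases), was not called. Over the 39 members, Spearman's rho between this length and the log2 ratio was 0.57 in WT and 0.65 in the mutant library. It was 0.41 and 0.39 for the span of the gene and 0.46 and 0.44 for its number of exons. Genes of 1 library share its cells and depth, so these are descriptions across genes. The lengths and correlations over all genes were not computed, so they are not shown to be particular to the members.

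**Figure D3:**
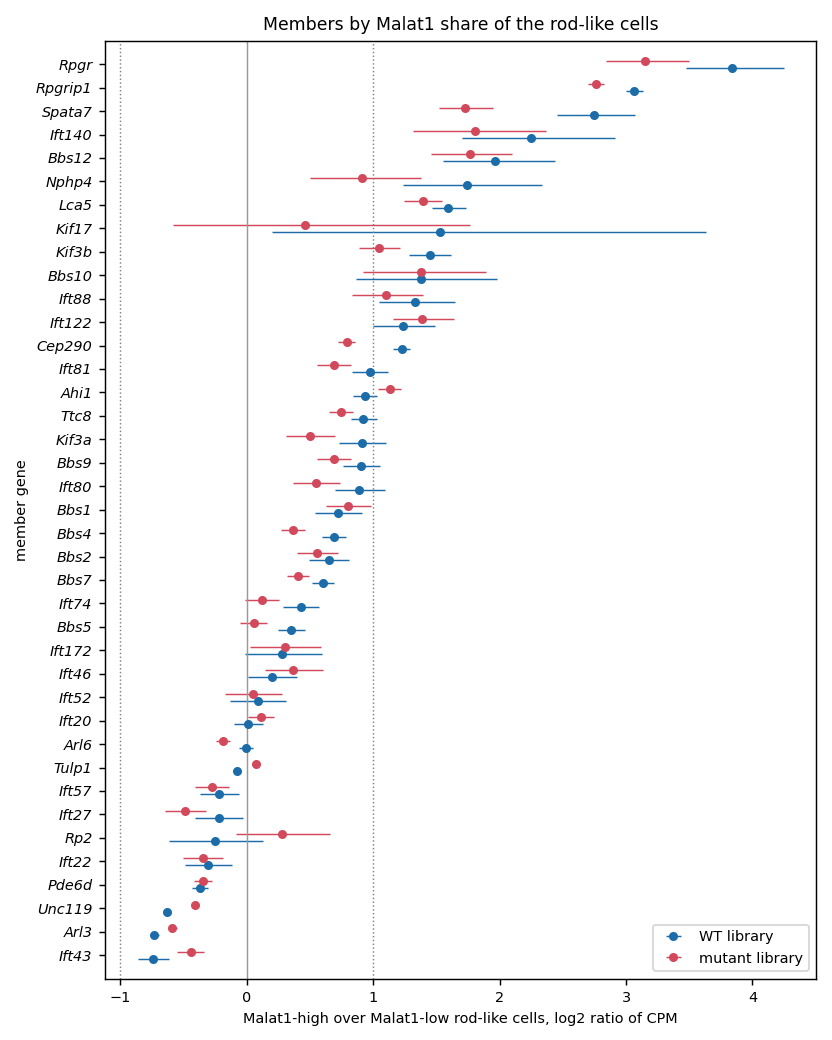
Log2 ratio of CPM in Malat1-high over Malat1-low rod-like cells for the 39 members, ordered by the WT library, with 95% counting intervals and both libraries side by side and dotted lines at a 2-fold ratio. Rpgr and Rpgrip1 are the furthest to the right in each library, and Ift43, Arl3, and Unc119 lie at the bottom.

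Between the libraries, the members of rod-like cells were nearly at the same level. A member was called when the mutant and WT libraries differed at least 1.5-fold, with an interval that left out a ratio of 1 and at least 50 UMIs in both together. In rod-like cells 1 of 39 members was higher in the mutant library (11.6% of 11842 genes) and 0 were lower (4.79%). There were 18 members above and 21 below 0, and their median log2 ratio was −0.07, beside −0.01 over all genes. The 62 other cilium genes had a median of −0.08, with 1 higher, Hspb11 (22.8 and 36.1 CPM, log2 0.66), an IFT-B gene, and 0 lower.

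The called member was Bbs12 (chr3:37312554-37321453, plus strand), with 581 UMIs in WT and 874 in the mutant rod-like cells, that is 17.1 and 26.2 CPM (log2 0.62, interval 0.47 to 0.78). The difference lay just past the 1.5-fold limit. It was no longer called when each cell was thinned to 400 UMIs (log2 0.32) or when the highest 10% of doublet scores were removed. In Malat1-high rods alone it was 21.2 and 32.9 CPM (0.63), and in Malat1-low rods 5.38 and 9.64 (0.84), higher in the mutant library in each set, except that thinning gave −0.069 in Malat1-high rods. The exons of Bbs12 overlap those of Gm43439 on the same strand and of Cetn4 on the other, and how reads in the overlap were counted is not given in the sources used here, so its level is uncertain.

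Lca5 (chr9:83390293-83441127, minus strand), the lebercilin gene, showed the largest difference in the other direction in rod-like cells, with 142 CPM in WT and 94.7 in the mutant library (log2 −0.58, interval −0.65 to −0.52), and stood just short of the limit. It was called lower when the total was taken without mtDNA-encoded UMIs and when the highest 10% of doublet scores were removed, and ranged from −0.61 to −0.43 over all settings. Kif3a (−0.43), Ift46 (−0.43), Pde6d (−0.41), Cep290 (−0.37), Kif3b (−0.34), Unc119 (−0.34), Rpgr (−0.30), and Arl6 (−0.29) were also below 0 without reaching it. On the positive side beside Bbs12 were Ift43 (0.46), Ift22 (0.43), Ift20 (0.32), Ift27 (0.31), and Ift57 (0.30), all IFT genes. Others above 0 included Bbs10 (0.26), Rp2 (0.22), Arl3 and Ahi1 (each 0.21), and Tulp1 (0.11). Rpgrip1 was at 0.02.

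By role, the 7 BBSome subunits ranged only from −0.20 to 0.10 (median −0.08), and the 11 IFT-B genes from −0.43 to 0.43 (median −0.06). The 7 connecting-cilium genes had a median of −0.10 and the 4 carriers one of −0.11. Of the 3 motors, Kif3a and Kif3b were below 0 and Kif17 was at 0.07. The 2 chaperonin-like genes, Bbs12 and Bbs10, had the highest median of any role (0.44).

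Pde6d was below 0 in each of the 7 classes, with 276 and 208 CPM in rod-like (log2 −0.41), 311 and 224 in all cone-like (−0.48), 171 and 130 in bipolar-like (−0.40), 138 and 106 in amacrine-like (−0.39), 182 and 129 in Müller-like (−0.49), 130 and 121 in RPE-like (−0.10), and 139 and 115 in microglia-like cells (−0.26). The intervals of the Müller-like, RPE-like, and microglia-like cells included 0. No class reached 1.5-fold. Since rod RNA was found in all classes, these values are not independent of each other.

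In Malat1-low rods, 3 members were called higher in the mutant library (17.3% of genes; 0 lower, 2.65%), which were Bbs12, Spata7 (10.4 and 21.1 CPM, log2 1.01), and Nphp4 (3.58 and 5.66 CPM, 0.65, interval 0.00 to 1.34). The median over the members was 0.12, beside 0.19 over all genes. In Malat1-high rods only Bbs12 was called (10.2% of genes higher and 5.6% lower). Over all cells the count was likewise 1, Bbs12 at 0.61 (15.7%), with 0 lower (5.53%).

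In cone-like cells Kif3a, a subunit of the heterotrimeric kinesin-2, was lower in the mutant library, with 65.3 CPM in WT and 42.5 in the mutant library from 694 and 645 UMIs (log2 −0.62, interval −0.78 to −0.46; 4.22% of genes), and 0 members were higher (6.5%). Without the cluster of highest UMIs the ratio was −0.39 and not called, so this call rests on that cluster. The remaining cone-like cells had 0 members higher (4.77% of genes) and 0 lower (4.24%).

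**Figure D4:**
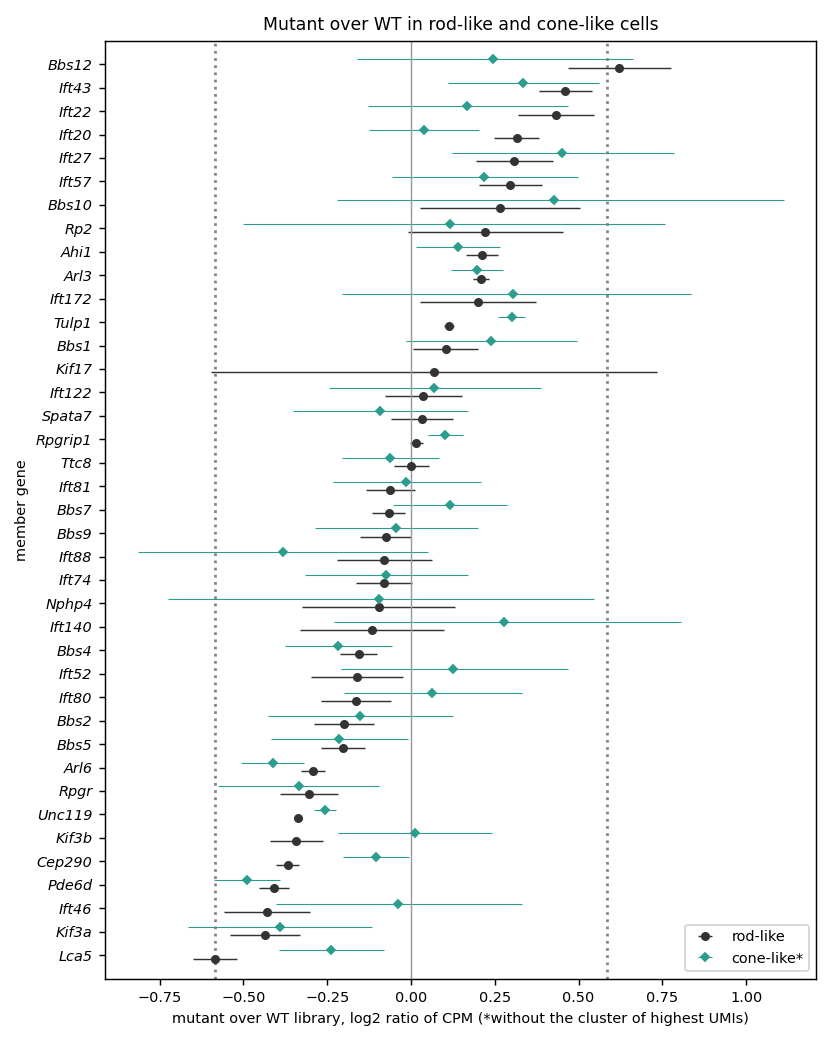
Log2 ratio of CPM in the mutant over the WT library in rod-like cells (circles, ordered) and in cone-like cells without the cluster of highest UMIs (diamonds, members with at least 50 UMIs), with 95% counting intervals. Dotted lines mark a 1.5-fold ratio, which Bbs12 alone passes among the rod-like values, with Lca5 at the opposite end.

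The smaller classes gave further calls. In bipolar-like cells Bbs12 (16 and 92 UMIs, log2 1.27), Ift172 (18 and 75 UMIs, 0.81), and Ift88 (27 and 104 UMIs, 0.71) were higher in the mutant library (7.34% of genes) and 0 lower (3.08%). In amacrine-like cells Rpgrip1 (472 and 830 CPM, 0.81), Ahi1 (231 and 412 CPM, 0.83), Tulp1 (492 and 829 CPM, 0.75), and Lca5 (37.8 and 58.2 CPM, 0.60) were higher (9.73%) and 0 lower (7.75%). The summed rod markers were 16084 CPM in WT and 23097 in the mutant amacrine-like cells, in the same direction, and their part in these calls was not tested.

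In Müller-like cells Rpgr (22 and 28 UMIs, log2 1.29), Spata7 (34 and 31 UMIs, 0.82), and Ahi1 (120 and 98 UMIs, 0.66) were higher in the mutant library (6.51%), and Lca5 (110 and 24 UMIs, −1.22) and Kif3b (64 and 16 UMIs, −1.02) lower (9.55%). In RPE-like cells Bbs9 (54 and 79 UMIs, 0.62) was higher (5.41%) and 0 were lower (6.16%). In microglia-like cells Kif3b (27 and 23 UMIs, 1.13) was higher (6.72%) and 0 were lower (8.69%). In these classes 8 members in amacrine-like, 16 in Müller-like, 7 in RPE-like, and 21 in microglia-like cells had under 50 UMIs and were not called.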

How the data were processed

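Single-cell RNA-Seq libraries of whole retina were analysed, 1 of WT and 1 of ND6 mice. Reads were aligned to mm10 with Cell Ranger 3.0.2 (per the submitters' processing notes), and the authors deposited, for each gene in each barcode, an unfiltered UMI count without normalization. The annotation release is not given in the sources used here. Positions were taken from GRCm38 gene annotation by gene ID.

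Barcodes with at least 401 UMIs, 201 genes, and at most 20% mtDNA-encoded UMIs were kept. Without the members, 3000 variable genes, 30 components, and 20 neighbours gave 22 Leiden clusters at resolution 1 (scanpy 1.11.5, leidenalg 0.10.2). A cluster of at least 20 cells, other than rod-like, was named when at least 3 markers were raised 2-fold and led its top 10 genes. Rod-like clusters were named afterwards, against the median of the named clusters other than cone-like. They needed at least 3 raised rod markers and no class with more markers in the top 10. Clusters of 761 WT and 1166 mutant cells (Malat1 82565 CPM) and of 683 and 534 cells (57678 CPM) held no rod marker there. These rules were settled after the clusters were seen. Scrublet called 0 WT and 1 mutant cells, so it had not worked, and doublets were kept. The alternative without the highest 10% of doublet scores used these same scores, so the cells it removed may not be doublets.

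UMIs were summed per class and library and divided by the class total. Log2 ratios used 0.5 added UMIs and exact conditional 95% intervals, and sums exact Poisson intervals (numpy 2.4.6, scipy 1.17.1, pandas 2.3.3, matplotlib 3.10.9). With 1 library per genotype, no test, p-value, or standard error was computed. All members were accounted for. Between libraries, members needed at least 50 UMIs in the class compared. Between classes, the 50 UMIs were counted over both classes and libraries, so rod UMIs could meet this minimum where the other class had few. Of other cilium genes, those called were named, except that some results are not reported here. Scripts for ratios and intervals were tested on simulated data. Alternatives changed the scaling, cell weights, mtDNA and UMI limits, depth, doublets, clustering, and UMI minimum, and the sets of rods and cones used, the last 2 chosen after seeing the data. The members and lists were chosen with earlier results of these data known.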

Additional observations from a re-analysis of the deposited data

Results flagged for a closer look

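The mutant to WT ratio of Lca5 had opposite signs in 2 classes, at log2 0.60 in amacrine-like and −1.22 in Müller-like cells, and this difference was not tested. That of Kif3b was 1.13 in microglia-like and −1.02 in Müller-like cells, and was not tested either. The barcodes above 20% mtDNA-encoded UMIs, which entered only the alternative with no mtDNA limit, held all 39 members. They had 11820 WT and 7415 mutant member UMIs per 1000000 UMIs that were not mtDNA-encoded (10647 and 3861 barcodes), against 12217 and 11115 in the cells kept.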

How the results depend on the processing

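No paired analysis was possible because each genotype had 1 library, and for the same reason no replicate could be left out. Of the counts and medians under each alternative, 249 stayed close to the reported value (a count within 1.5 times, a median within the counting interval of the median gene), and the 58 that moved are given below. For single genes, 4960 values were the same by this measure, 1098 moved, and 1 called value reversed, Bbs12 in Malat1-high rods, at −0.069 with cells thinned to 400 UMIs. The cause was not tested for any of these.

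With median-of-ratios size factors, the Malat1 comparison had 5 members higher and 2 lower, with medians of −0.15 WT and −0.029 mutant. The cone over rod medians were −0.063 and −0.12, the mutant rod over inner median was 0.64, and 0 members were higher between libraries over all cells. Other cilium genes had 7 higher in rods over inner retina and 2 between libraries. With thinning to 400 UMIs, the mutant Malat1 median was 0.28 and the rod median between libraries −0.011. Members higher between libraries were 0 over all cells, 0 in rods, 1 in cones, and 2 in the 5 other classes, and lower were 0 in cones and 1 in the other classes. Thinned, 0 members were higher in other classes over rods and 2 were lower in rods over inner retina, where 3 other cilium genes were higher and 2 lower. With cells weighted equally, 1 member was higher in cones over rods, 5 were higher and 39 lower in other classes over rods, and 2 lower in rods over inner retina, with 5 other cilium genes higher. Between libraries, medians were then 0.039 over all cells and 0.048 in rods, with 2 members higher over all cells, 1 in cones, and 36 in the other classes, and 0 lower in cones and 5 in the other classes. With the highest 10% of doublet scores removed, 0 members were higher over all cells, 0 higher and 1 lower in rods, and 4 higher and 4 lower in the other classes. Lower calls in other classes over rods came to 55, the mutant rod over inner median to 0.45, and other cilium genes higher in rods to 7.

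With no mtDNA limit, medians between libraries were 0.088 over all cells and 0.071 in rods, the WT cone over rod median was 0.23, and 3 other cilium genes were higher. With totals without mtDNA, 1 member was lower in rods. With at least 200 UMIs, 4 members were higher and 0 lower in the other classes, 0 lower in rods over inner retina, and 2 other cilium genes lower there. With resolution 0.5, and with 1000 UMIs per cell, 2 other cilium genes were higher between libraries. Without the highest-UMI cluster, the WT cone over rod median was 0.037 and 0 members were lower in cones between libraries. With Malat1-low rods alone, the median between libraries was 0.12 with 3 members higher, and 6 were lower in rods over inner retina. Depth limited the Müller-like and microglia-like classes most, where 16 and 21 of 39 members had under 50 UMIs.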
